A study of Mus musculus with 4 samples.

Results

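The RNAs encoded by the mitochondrial genome were compared between 2D and 3D cultures of AML12, a line of immortalised mouse hepatocytes. The members are the rows of the deposited gene table whose symbol starts with mt-, and they number 37 of the 31828 genes listed: 13 mRNAs, 2 rRNAs and 22 tRNAs. Of these, 29 reached the mean of at least 1 TPM needed for testing, all mRNAs and rRNAs and 14 of the tRNAs among them. TPM, the unit of the table, is a transcript abundance corrected for length and scaled to the same total in each library.

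The 2D cells grew on a dish to 50% confluence and the 3D cells grew for 24 h embedded in Matrigel, a basement membrane extract, before 1 mM hydroxyurea was added to either culture. Hydroxyurea blocks DNA replication and holds cells at the G1/S boundary, and the 2D cells had it for 24 h but the 3D cells for 36 h, so growth form and treatment time cannot be told apart. There were 2 libraries of each culture, 4 in all, from 1 cell line, and no library without hydroxyurea. The labels do not say whether the replicates were separate cultures, so a p-value measures the spread between these libraries only.

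RNA levels per library were TPM without counts, so the depth of sequencing is not known, and 13891 to 14256 genes per library were at 1 TPM or more. The hepatocyte regulator Hnf4a lay between 56.7 and 163.8 TPM and the keratins Krt8 and Krt18 above 1795 TPM in every library. Albumin was low, from 0.819 to 12.7 TPM, and Apoa2 and Serpina1a were at or near 0. Of the hepatocyte markers, Hnf4a, albumin, Apoa1, Ttr and Trf were higher in both 3D libraries than in both 2D libraries. Krt8 and Krt18 were lower in both 3D libraries. Summed over their lists, the fibroblast markers used (Col1a1, Dcn and Pdgfra) did not pass 0.857 TPM and the endothelial markers 1.19 TPM in any library. The macrophage and leukocyte list summed to 18.5 to 26.4 TPM, nearly all of it from Cd68, while Adgre1, Csf1r and Ptprc were each at 0.534 TPM or less. In such bulk samples a smaller share of cells with an RNA and less of it per cell cannot be told apart.

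The mitochondrial genome is a compact circle with almost no space between its genes and no introns. Each strand is transcribed by POLRMT with TFAM and TFB2M into long precursors, and most mRNAs and rRNAs are released where the tRNAs between them are cut out. Most of the mRNAs then gain poly(A) tails. All 13 encode core subunits of the oxidative phosphorylation machinery: 7 of complex I (NADH dehydrogenase), 1 of complex III, 3 of complex IV (cytochrome c oxidase) and 2 of ATP synthase. The libraries were made from poly(A) RNA. Mature tRNAs have no such tails and rRNAs carry at most short ones, so for these classes the values cover only the molecules that the kit retained. The same limit holds for any mRNA without a regular tail.

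Neighbouring mitochondrial genes can share bases, which makes the split of their reads uncertain. No tRNA lies between mt-Atp8 and mt-Atp6 or between mt-Nd4l and mt-Nd4. Their values are therefore per gene and need not be levels of separate RNA molecules. Counts of mRNAs here are counts of genes. The longest shared stretch among the members joins mt-Atp8 and mt-Atp6, which encode ATP synthase subunits. These sequences are shown because the same stretch opens mt-Atp6 and Gm10925, a nuclear pseudogene. Capitals mark the 43 bases that mt-Atp8 shares with mt-Atp6, and the same bases in Gm10925. The mitochondrial stretches are chrM:7910-7969 and chrM:7927-7986 on the + strand, and the nuclear one is chr1:24614592-24614651 on the − strand, all from GENCODE M21 transcripts on GRCm38.
mt-Atp8, end: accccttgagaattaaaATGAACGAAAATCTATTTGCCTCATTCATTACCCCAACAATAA
mt-Atp6, start: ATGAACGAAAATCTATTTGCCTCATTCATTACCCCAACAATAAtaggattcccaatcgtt
Gm10925, start: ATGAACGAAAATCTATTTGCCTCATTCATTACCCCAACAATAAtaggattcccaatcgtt

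The other overlaps are shorter: 14 bases between mt-Nd5 and mt-Nd6 on opposite strands, 7 between mt-Nd4l and mt-Nd4, and 1 to 3 bases at 6 further joints. The larger source of shared sequence is the nucleus. A search of the 37 transcripts against all other annotated transcripts found 11 nuclear pseudogenes that match a member over at least 200 bases at 95% identity or more. Of these, 7 match at 99% or more, a limit set after the matches were seen, and lie in the same order, all on the − strand, in a stretch of 4663 bases at chr1:24611535-24616197. They correspond to positions 6390 to 11042 of the mitochondrial genome, from the last 483 bases of mt-Co1 to the first 876 bases of mt-Nd4. All but the last 1 to 3 bases of mt-Co2, mt-Atp6, mt-Co3, mt-Nd3 and mt-Nd4l are matched by such a copy, with no difference for mt-Co2, mt-Atp6, mt-Co3 and mt-Nd4l and with 1 mismatch for mt-Nd3. The copies matched 31.3% of mt-Co1 and 63.6% of mt-Nd4. The other 4 pseudogenes, Gm13339, Gm13340, Gm13341 and Gm4076, were 95.2% to 97.6% identical to parts or all of mt-Nd2, mt-Co1, mt-Co2 and mt-Nd5.

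The sequences where mt-Co1 enters the nuclear stretch show how little tells a copy from the gene. Capitals in mt-Co1 mark the bases that differ in either copy, and capitals in a copy mark its differences from mt-Co1. Within the 483 bases shared with Gm29216 the only mismatch is at position 1066 of mt-Co1, counted from 1 at the first base of the gene, whereas Gm13340 differs at 37 positions over the whole gene. The stretches are chrM:6390-6469 on the + strand, chr1:24616109-24616188 on the − strand and chr2:22588506-22588585 on the − strand.
mt-Co1: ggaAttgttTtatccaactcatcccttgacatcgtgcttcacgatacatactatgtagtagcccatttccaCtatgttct
Gm29216: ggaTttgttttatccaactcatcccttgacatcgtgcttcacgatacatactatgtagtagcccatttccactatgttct
Gm13340: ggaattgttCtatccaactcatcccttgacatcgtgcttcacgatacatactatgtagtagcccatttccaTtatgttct

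At its other end the near-identical stretch stops inside mt-Nd4. Capitals mark the bases of mt-Nd4 that follow the end of Gm28439 (chrM:11013-11072, + strand, and chr1:24611535-24611564, − strand).
mt-Nd4: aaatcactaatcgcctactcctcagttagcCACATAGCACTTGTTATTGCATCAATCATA
Gm28439, last bases: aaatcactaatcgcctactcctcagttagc

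Levels in TPM were set beside this map. The 5 mRNAs with no near-identical copy, mt-Nd1, mt-Nd2, mt-Nd5, mt-Nd6 and mt-Cytb, lay between 273 and 13732 TPM in the 4 libraries. The 5 mRNAs matched over nearly their whole length lay between 0.0004 and 219 TPM, so the ranges did not overlap. The mRNA mt-Atp8 had no such copy among the annotated transcripts but lies between genes that do, inside the stretch that the copies span. It was at 94.9 to 123.6 TPM, inside the range of the matched genes. Unannotated nuclear bases between the copies were not searched, so a match to mt-Atp8 there would have been missed. Of the genes matched in part, mt-Co1 was the most abundant gene of the whole table in each of the 4 libraries, and mt-Nd4 was at 3905 to 5145 TPM in 3 libraries and at 16.8 TPM in the fourth. This order is a description across genes and includes genes of unequal length, promoter distance and stability, whose part in it was not tested.

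**Figure D1:**
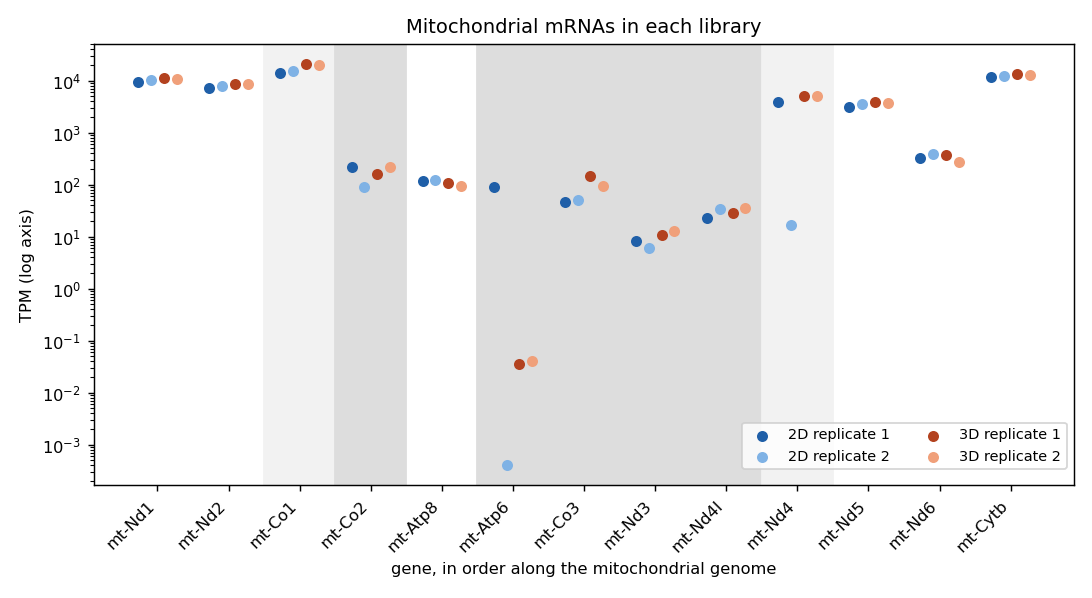
TPM on a log axis of the 13 mitochondrial mRNAs in genome order, with 1 point per library (blue for 2D and red for 3D); dark bands mark genes matched over nearly their whole length by a near-identical nuclear pseudogene and light bands those matched in part. The 5 genes in dark bands reach 219 TPM at most, and mt-Atp6 and mt-Nd4 are the genes whose 2D libraries lie far apart.

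Of the 13 mRNAs, 4 rose in 3D culture and none fell, 30.8% of those tested. The background was high: of the 14116 genes tested, 50.5% were called, 23.4% higher and 27.1% lower in 3D. The tests are those of limma on log2(TPM + 1), with Benjamini-Hochberg adjustment over all genes tested, and the call is an adjusted p under 0.05. Over the mRNAs the median log2 fold change was 0.21, and over all genes tested it was -0.04. The mRNAs that rose were mt-Co1, mt-Co3, mt-Nd2 and mt-Nd3. For 8 of the 13 mRNAs both 3D libraries lay above both 2D libraries and for mt-Atp8 below them, against either separation in 77.5% of all genes tested.

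In complex IV, mt-Co1 and mt-Co3 rose. mt-Co1, the catalytic subunit, is encoded at positions 5328 to 6872 on the + strand and was at 14102 and 15272 TPM in the 2D libraries and at 20927 and 19658 TPM in the 3D libraries. The groups were well apart, by a fold of 1.38 between the means, a log2 fold change of 0.47 ± 0.05 (SE, n = 2 libraries per culture, adjusted p = 0.0030). The call for mt-Co1 held with each library left out in turn. Its pseudogene Gm29216 was at 29.2 and 31.1 TPM in 2D and 46.9 and 58.4 TPM in 3D, 0.78 ± 0.12 higher on the log2 scale (adjusted p = 0.0062).

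mt-Co2, which carries the copper site that takes electrons from cytochrome c, was at 219 and 88.6 TPM in 2D and at 160 and 219 TPM in 3D. The groups overlapped, and its log2 difference of 0.42 ± 0.45 did not pass (adjusted p = 0.473). Together with Gm28661, its 100% identical nuclear copy, it summed to 249 and 183 TPM in 2D and 193 and 284 TPM in 3D, which also overlapped. mt-Co3, a structural core subunit, was at 47.2 and 50.3 TPM in 2D and at 150 and 93.3 TPM in 3D. It rose by 1.26 ± 0.23 on the log2 scale (adjusted p = 0.0108), and its 3D libraries differed more from each other than its 2D libraries did. The call for mt-Co3 was lost without the first 2D library (adjusted p = 0.135) or the second (adjusted p = 0.117). With its copy Gm28437 added, mt-Co3 was at 71.0 and 79.2 TPM in 2D and 196 and 133 TPM in 3D, and the rise remained called at 1.10 (adjusted p = 0.0103).

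Of the complex I subunits, mt-Nd2 and mt-Nd3 rose. mt-Nd2, a membrane-arm subunit encoded at positions 3914 to 4951, was at 7125 and 7801 TPM in 2D and 8834 and 8747 TPM in 3D. This was a fold of 1.18 between the means and 0.24 ± 0.05 on the log2 scale (adjusted p = 0.0172). The mt-Nd2 call was lost without the first 3D library (adjusted p = 0.102) or the second (adjusted p = 0.0899), and with a constant prior variance (adjusted p = 0.0589). mt-Nd3, which lines the hinge between the arms of the complex, was far lower, at 8.26 and 6.01 TPM in 2D and 10.9 and 12.8 TPM in 3D. This was a log2 difference of 0.67 ± 0.17 (adjusted p = 0.0285). The sum of mt-Nd3 and its near-identical copy Gm28438 was 0.52 higher on the log2 scale, close to the threshold (adjusted p = 0.0479). For mt-Nd3 leaving out the second 2D library gave 0.0616, the first 3D library 0.0621 and the second 3D library 0.119 as adjusted p, and no filter on low values gave 0.0672.

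The highly expressed mt-Nd1, which forms part of the quinone site, was at 9643 and 10359 TPM in 2D and 11252 and 10850 TPM in 3D. Its groups did not overlap, but the difference of 0.14 ± 0.05 on the log2 scale missed the threshold (adjusted p = 0.0533). mt-Nd5, a proton-pumping subunit, was at 3152 and 3644 TPM in 2D and 3956 and 3717 TPM in 3D, with a log2 difference of 0.18 ± 0.08 (adjusted p = 0.126). mt-Nd6, the only mRNA on the − strand, overlapped between cultures, at 331 and 392 TPM in 2D and 379 and 273 TPM in 3D. mt-Nd4l, a small membrane subunit, also overlapped, at 22.5 and 33.4 TPM in 2D and 29.0 and 34.9 TPM in 3D.

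mt-Nd4, another pumping subunit (positions 10167 to 11544), was at 3905 and 16.8 TPM in 2D and at 5145 and 5038 TPM in 3D. The second 2D library stood apart from the other 3 libraries, and the log2 difference of 4.27 ± 3.37 did not pass (adjusted p = 0.381). Without that library mt-Nd4 was 0.38 higher in 3D on the log2 scale, and without the first 2D library it was 8.16 higher. Adding Gm28439, the copy of its first 876 bases, gave 3920 and 35.9 TPM in 2D and 5168 and 5062 TPM in 3D, so the second 2D library stayed low in the sum. The overlapping mt-Nd4l, at 33.4 TPM in that library against 22.5 TPM in the first, did not hold the difference either. The cause of the low mt-Nd4 value was not tested.

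mt-Cytb, the complex III subunit that carries the b hemes, was at 11736 and 12408 TPM in 2D and 13732 and 12976 TPM in 3D. Its libraries were separated by culture by 0.15 ± 0.04 on the log2 scale (adjusted p = 0.0507), and it was not called. mt-Nd1 and mt-Cytb lie so near the threshold that rescaling decides them: with TPM rescaled over non-mitochondrial genes the adjusted p was 0.0382 for mt-Nd1 and 0.0372 for mt-Cytb. Under quantile normalization, which gives the genes of each rank the same value in every library, mt-Nd1 was called lower at -0.26 and mt-Cytb at -0.17, and mt-Co1, ranked 1 in each library, had a difference of 0 by construction. Under it mt-Nd2 was 0.01 higher and not called (adjusted p = 0.941).

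Neither ATP synthase gene was called, and both had negative differences. mt-Atp8 was at 116 and 124 TPM in 2D and at 108 and 94.9 TPM in 3D, lower by 0.24 ± 0.08 on the log2 scale and just short of the threshold (adjusted p = 0.0511). mt-Atp6, subunit a of the proton channel (positions 7927 to 8607), was at 90.9 TPM in the first 2D library and at 0.0004 TPM in the second. In the 3D libraries it was at 0.0350 and 0.0410 TPM, so that 1 library of 4 held nearly all of its listed abundance. The test gave -3.21 ± 2.15 (adjusted p = 0.269), or -6.47 without the second 2D library, which was called (adjusted p = 0.00168), and 0.05 without the first (adjusted p = 0.863). The cause of the mt-Atp6 values near 0 was not tested.

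Its nuclear copy Gm10925 was at 58.2 and 146 TPM in 2D and at 80.2 and 81.3 TPM in 3D. The high and low libraries of mt-Atp6 and Gm10925 within 2D were opposite, and their sum was 149 and 146 TPM in 2D and 80.3 and 81.3 TPM in 3D. The 2 values of each culture agreed closely in the sum where they had not in mt-Atp6 alone. Tested with the copies added, mt-Atp6 was lower in 3D by 0.86 on the log2 scale and was called (adjusted p = 0.000406). That alternative was the only one of those run over all 4 libraries in which mt-Atp6 was called. The sum cannot say how much of the RNA came from either genome.

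**Figure D2:**
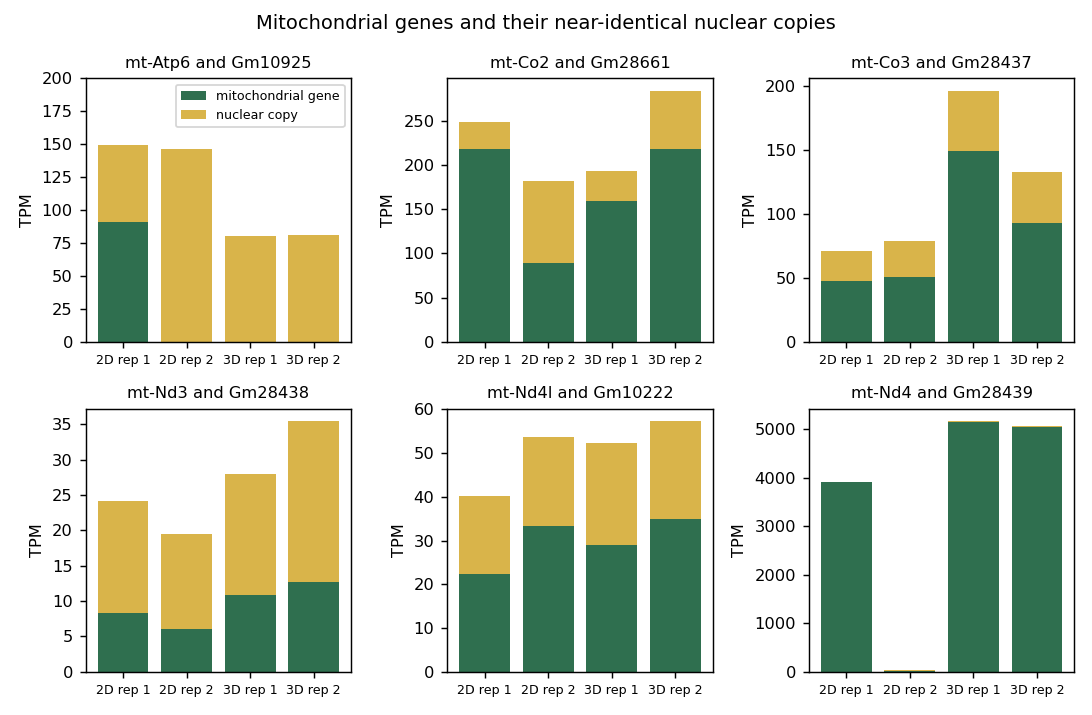
TPM of 6 mitochondrial genes (green) stacked on their near-identical nuclear copies (yellow), with 1 bar per library and a separate linear axis from 0 for each gene. The bars of mt-Atp6 are nearly level within a culture, at 149 and 146 TPM in 2D and 80.3 and 81.3 TPM in 3D, although their green part is visible in 1 library only, and the low second 2D bar of mt-Nd4 stays low with its copy.

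The share of the pooled abundance listed under the gene rather than its copy varied widely. mt-Nd3 made up 30.8% to 38.9% of its sum with Gm28438, and mt-Nd4l 55.5% to 62.4% of its sum with Gm10222. mt-Co3 made up 63.5% to 76.2% of its sum, whereas mt-Co1 made up at least 99.7% of its sum with Gm29216. mt-Nd4 made up 99.5% to 99.6% of its sum with Gm28439 in 3 libraries and 46.7% in the second 2D library. Of the 11 pseudogenes 9 were tested, 4 were higher in 3D (Gm13340, Gm28439, Gm28437 and Gm29216), 44.4% against 23.4% of all genes tested, and none was lower. Of these calls, Gm28439 (adjusted p = 0.0439) and Gm13340 (adjusted p = 0.0193) were lost without the first 2D library or either 3D library, with adjusted p from 0.0594 to 0.145 and from 0.0630 to 0.0927. Gm28439 was also lost with no filter on low values and with a constant prior variance, and Gm28437 without the first 3D library (adjusted p = 0.0513).

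Among the members, a difference between replicates of more than 1 in log2(TPM + 1) was found between the 2D libraries and not between the 3D libraries. It was found for mt-Co2, mt-Atp6 and mt-Nd4, 3 of 37 members or 8.11%, and for 110 or 0.779% of the genes tested. The 37 include the tRNAs too low to test, so these shares are not over like sets. Between the 3D libraries it was found for none of the members and for 105 or 0.744% of the genes tested. All 3 genes are among the 7 with a near-identical copy, and mt-Atp6 and mt-Nd4 each overlap the gene before them. The copies Gm10925 and Gm28661, of mt-Atp6 and mt-Co2, also differed between the 2D libraries, by 1.31 and 1.62 and in the opposite direction to their genes. Between the 3D libraries Gm28661 differed by 0.95 and mt-Co2 by 0.45, in the same direction, and Gm10925 by 0.02. The overlapping partners mt-Atp8 and mt-Nd4l differed between the 2D libraries by 0.09 and 0.55 on that scale.

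Both rRNAs fell in 3D culture. They form the small and large subunits of the mitochondrial ribosome and lie at positions 70 to 1024 and 1094 to 2675. mt-Rnr1 (12S) was at 1033 and 958 TPM in 2D and at 727 and 849 TPM in 3D, a log2 change of -0.34 ± 0.09 (adjusted p = 0.0301). mt-Rnr2 (16S) was at 1937 and 1646 TPM in 2D and 1200 and 1441 TPM in 3D, a change of -0.44 ± 0.12 (adjusted p = 0.0356). The groups did not overlap for either rRNA, but both calls were weak. Without the first 2D, the second 2D or the first 3D library neither was called, with adjusted p from 0.0888 to 0.165 for mt-Rnr1 and from 0.0840 to 0.203 for mt-Rnr2. With the replicate block the adjusted p was 0.0568 for mt-Rnr1 and 0.107 for mt-Rnr2. How far poly(A) selection differed between the libraries was not tested.

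Of the 22 tRNAs, 3 rose (21.4% of the 14 tested), against 23.4% of all genes tested, and none fell. The median log2 fold change of those tested was -0.09. The sequences of the 3 that rose are shown with the bases they share with their neighbours; a place beside an abundant mRNA is not particular to them, since mt-Tm, mt-Tt and mt-Tl2 also adjoin mt-Nd2, mt-Cytb and mt-Nd5 and were not called. Capitals mark bases shared with a neighbouring gene on either strand; mt-Tl1 (chrM:2676-2750, leucine) ends directly before mt-Nd1 without overlap, mt-Ti (chrM:3706-3774, isoleucine) begins in the last bases of mt-Nd1, and mt-Tw (chrM:4950-5016, tryptophan) begins in the last bases of mt-Nd2.
mt-Tl1: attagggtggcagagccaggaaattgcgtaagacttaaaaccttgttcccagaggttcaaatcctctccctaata
mt-Ti: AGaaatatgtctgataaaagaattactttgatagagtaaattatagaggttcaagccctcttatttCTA
mt-Tw: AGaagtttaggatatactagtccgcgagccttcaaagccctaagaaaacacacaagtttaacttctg

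mt-Ti had the largest relative rise of these, from 15.0 and 18.2 TPM in 2D to 34.7 and 33.5 TPM in 3D, 1.00 ± 0.11 on the log2 scale (adjusted p = 0.0024). mt-Tw was at 57.1 and 61.2 TPM in 2D and 89.1 and 91.0 TPM in 3D, a rise of 0.60 ± 0.05 (adjusted p = 0.0016). mt-Tl1, the most abundant tRNA of the table, was at 660 and 624 TPM in 2D and 888 and 844 TPM in 3D, a rise of 0.43 ± 0.05 (adjusted p = 0.0026). For each of the 3 the cultures were clearly separated, and the calls held under every alternative run, with log2 fold changes from 0.86 to 1.13 for mt-Ti, from 0.55 to 0.65 for mt-Tw and from 0.39 to 0.47 for mt-Tl1. The genes span 59 to 75 bases, so a fragment that covers a tRNA can also cover a neighbour. Mature tRNA and uncut precursor cannot be told apart in these values.

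The other tested tRNAs gave no call in the fit over all 4 libraries with culture alone. mt-Tm (methionine) lies between mt-Tq and mt-Nd2 and was at 95.6 and 119 TPM in 2D and 103 and 88.2 TPM in 3D, with overlapping groups, unlike mt-Tw at the other end of mt-Nd2. mt-Tc (cysteine), on the − strand, was at 2.05 and 4.28 TPM in 2D and 0.809 and 1.42 TPM in 3D, a log2 difference of -0.94 ± 0.32 (adjusted p = 0.0636). mt-Tc was called lower with the replicate block (adjusted p = 0.0135) and without the first 2D library (adjusted p = 0.0232). mt-Tl2, the other leucine tRNA, was at 31.0 and 32.3 TPM in 2D and 31.8 and 23.5 TPM in 3D. mt-Te, mt-Tt and mt-Tp were between 7.61 and 15.8 TPM, and the tested mt-Tf, mt-Tv, mt-Tq, mt-Ty and mt-Th between 1.14 and 4.76 TPM.

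The 8 tRNAs too low to test were mt-Ta, mt-Tn, mt-Ts1, mt-Td, mt-Tk, mt-Tg, mt-Tr and mt-Ts2. Of these mt-Ts1, mt-Td, mt-Tk, mt-Tg and mt-Tr lie inside the stretch with nuclear copies, and their values ran from 0 to 0.448 TPM. mt-Td, for aspartate, was listed at 0 in both 2D libraries and at 0.0260 and 0.0237 TPM in 3D. mt-Ts1, mt-Tk, mt-Tg and mt-Tr were each listed at 0 in at least 1 library. The 17 tRNAs outside that stretch ran from 0.0055 to 888 TPM, with mt-Ts2, the shortest, at their lower end.

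**Figure D3:**
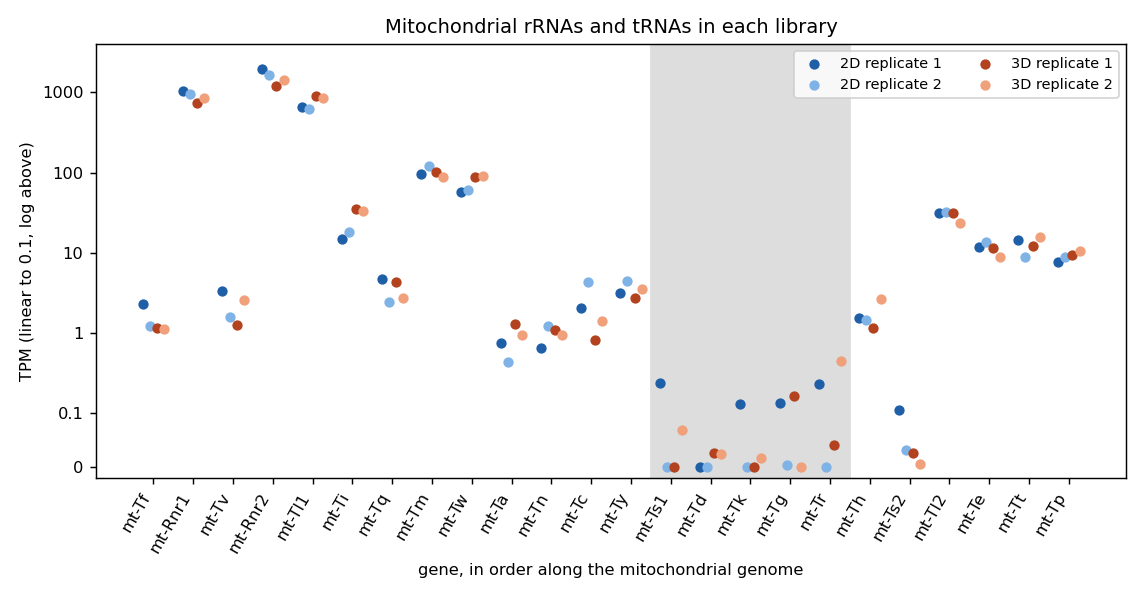
TPM of the 2 mitochondrial rRNAs and 22 tRNAs in genome order, with 1 point per library, on an axis that is linear up to 0.1 TPM and logarithmic above; the grey band holds the 5 tRNAs inside the stretch with near-identical nuclear copies. Those 5 stay at or below 0.448 TPM. The called tRNAs mt-Tl1, mt-Ti and mt-Tw show both 3D points above both 2D points, and the rRNAs show them below. Of all 22 tRNAs, 6 have both 3D points above both 2D points and 4 have them below.

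Across all members tested, 7 were higher in 3D, 2 were lower and 20 were not called, so 31.0% were called where 50.5% of all genes were. The members called higher had log2 fold changes from 0.24 for mt-Nd2 to 1.26 for mt-Co3. The widest errors belonged to mt-Nd4 and mt-Atp6, the members with the most discordant 2D libraries.

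**Figure D4:**
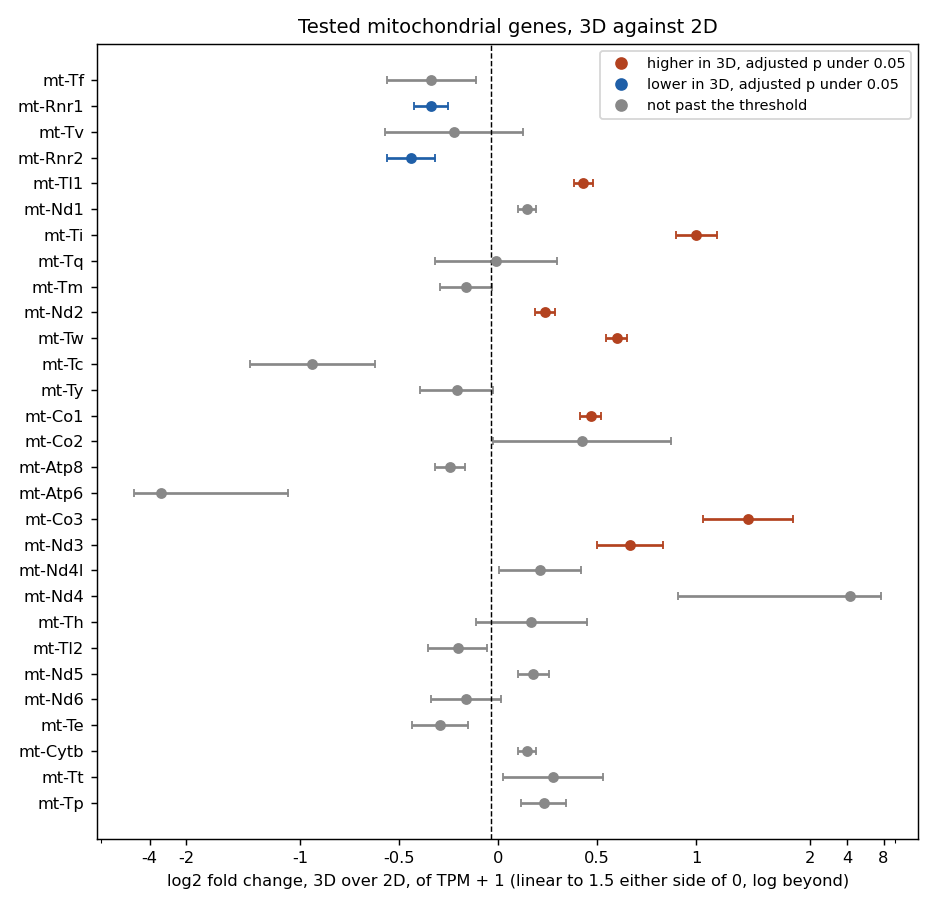
Log2 fold change of TPM + 1, 3D over 2D, of the 29 tested members in genome order with standard errors (n = 2 libraries per culture), on an axis linear to 1.5 either side of 0 and logarithmic beyond; red is called higher, blue called lower, grey not called, and the dashed line is the median of all genes tested at -0.04. The called points are mt-Tl1, mt-Ti, mt-Nd2, mt-Tw, mt-Co1, mt-Co3 and mt-Nd3 to the right and mt-Rnr1 and mt-Rnr2 to the left, and mt-Nd4 and mt-Atp6 have the longest bars.

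Ratios within a library do not depend on the scaling of the TPM total. They are given as values only, because the smallest two-sided p of an exact permutation test with 2 libraries per culture is 0.333. mt-Co1 over mt-Nd1 was 1.46 and 1.47 in 2D and 1.86 and 1.81 in 3D, a rise of 25.0% with a narrow spread in either culture. mt-Cytb over mt-Nd1 overlapped between cultures, at 1.22 and 1.20 in 2D and 1.22 and 1.20 in 3D. mt-Nd5 over mt-Nd1 overlapped as well, and mt-Nd2 over mt-Nd1 was higher in 3D by 6.66%. Relative to mt-Nd1, mt-Co1 was thus higher in both 3D libraries, while mt-Cytb and mt-Nd5 were not set apart. Relative to mt-Co3, which has a near-identical copy, mt-Co1 was lower in 3D, at 299 and 304 in 2D against 140 and 211 in 3D.

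mt-Rnr2, which is transcribed just before mt-Nd1, was at 0.201 and 0.159 of it in 2D and at 0.107 and 0.133 in 3D, lower by 33.4%. Between these genes lies mt-Tl1, whose ratio to mt-Nd1 was higher in 3D by 21.7% and to mt-Rnr2 by 84.1%. mt-Ti over mt-Nd1 was higher by 86.2% and mt-Tw over mt-Nd2 by 29.2%, whereas mt-Tm over mt-Nd2 was lower by 24.3%. Relative to mt-Nd2, the tRNA at its end was thus higher in 3D and the tRNA at its start lower. The ratio of mt-Nd5 to mt-Nd6, which overlap on opposite strands, was 9.53 and 9.30 in 2D and 10.4 and 13.6 in 3D.

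**Figure D5:**
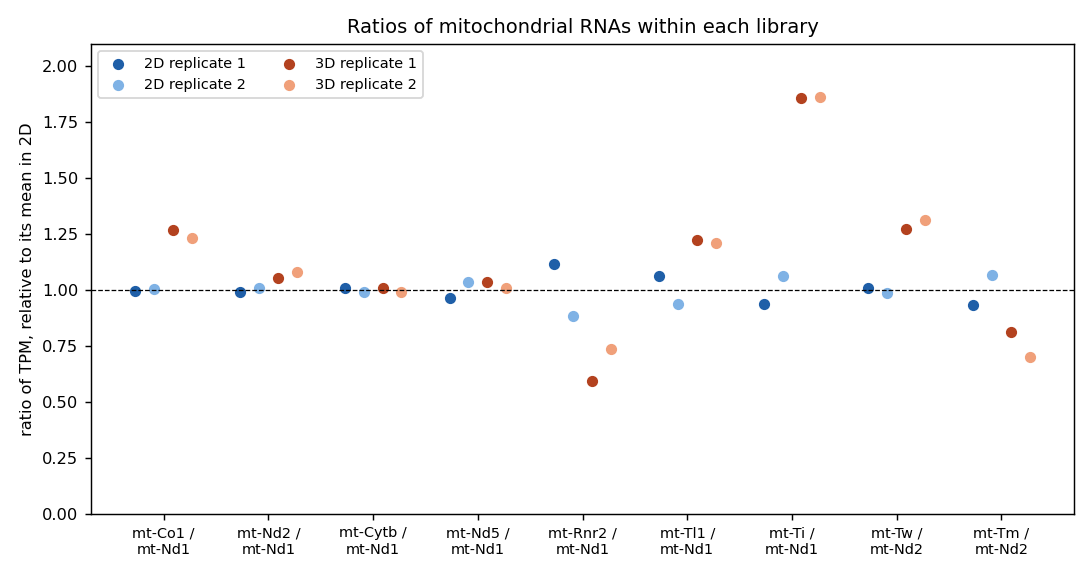
Ratios of TPM to mt-Nd1 (of mt-Co1, mt-Nd2, mt-Cytb, mt-Nd5, mt-Rnr2, mt-Tl1 and mt-Ti) or to mt-Nd2 (of mt-Tw and mt-Tm) in each library, divided by their mean in 2D, on a linear axis from 0 with the dashed line at 1. Both 3D points of mt-Co1 to mt-Nd1 lie above the 2D points, those of mt-Rnr2 to mt-Nd1 lie below, those of mt-Ti to mt-Nd1 are the highest of the 9 ratios drawn, and those of mt-Cytb to mt-Nd1 overlap.

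Taken as a share of all TPM, mitochondrial RNA was 5.40% ± 0.05 (SD, n = 2) in 2D and 6.65% ± 0.19 (SD, n = 2) in 3D. The difference of 1.24 percentage points was carried by the mRNAs, at 5.05% and 5.02% in 2D and 6.47% and 6.17% in 3D. The rRNAs went from 0.297% and 0.260% to 0.193% and 0.229%, and the tRNAs from 0.0912% and 0.0904% to 0.119% and 0.113%. By complex, complex IV contributed 0.571 points of the difference, nearly all mt-Co1, complex III 0.128 points and complex I 0.592 points. Without mt-Nd4, whose low second 2D library enters the complex I sum, complex I contributed 0.279 points. Over all members but mt-Nd4 the shares were 5.05% and 5.37% in 2D and 6.27% and 6.01% in 3D, and without the 7 mRNAs that have a near-identical copy the difference was 0.362 points. Genes on the − strand, mt-Nd6 and 8 tRNAs, held 0.0362% and 0.0427% in 2D and 0.0410% and 0.0302% in 3D, with overlapping groups.

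The nuclear genes that serve mitochondrial RNA and respiration were read from the same fit. Over the 7 lists 121 of 241 genes tested were called, 50.2% against 50.5% of all genes, with 11.6% higher and 38.6% lower against 23.4% and 27.1%. Of 10 mitochondrial transcription genes 2 were higher (20%) and 4 lower (40%) in 3D. Polrmt, the RNA polymerase itself, was at 31.8 and 34.6 TPM in 2D and 31.9 and 31.5 TPM in 3D, and Tfam, its DNA-bending activator, was at 28.0 and 28.5 TPM in 2D and 26.6 and 24.8 TPM in 3D. Neither was called (adjusted p = 0.458 and 0.145). Tfb2m, which opens the promoter, rose from 20.9 and 22.4 TPM to 31.4 and 36.7 TPM, by 0.63 ± 0.10 on the log2 scale (adjusted p = 0.0065), and the elongation factor Tefm rose by 0.46 (adjusted p = 0.0047). Mterf1a and Mterf3, members of the termination factor family, fell by 0.40 and 0.37. The Mterf1a call was lost with each library left out (adjusted p from 0.0548 to 0.12), with no filter (0.0624) and with the replicate block (0.0502).

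Of 17 genes of mtDNA replication and nucleotide supply, 5 rose (29.4%) and 5 fell (29.4%), with a median of 0.09. Of all genes tested, 23.4% were higher and 27.1% lower in 3D. The helicase gene Twnk rose by 0.76 and the polymerase accessory subunit Polg2 by 0.59, while the ligase gene Lig3 fell by 0.51 and the nuclease gene Exog fell by 0.46. The Polg2 call was lost without the first 2D or the second 3D library (adjusted p = 0.0790 and 0.101) and with no filter on low values (0.0539), and the Exog call without the first 3D library (0.0612). Among 32 genes of mitochondrial RNA processing and decay, 5 rose (15.6%) and 8 fell (25%). The largest changes called were those of Rexo2, an oligoribonuclease, which fell by 0.68, of the rRNA methyltransferase gene Mrm3, which fell by 0.50, of Hsd17b10, a part of RNase P, which rose by 0.48, and of the granule protein gene Grsf1, which rose by 0.43. Mrm3 was not called without the first 2D library (adjusted p = 0.0700). Lrpprc and Slirp, which together hold mitochondrial mRNAs stable, were not called, at 0.10 and -0.07.

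Of 80 genes for mitochondrial ribosomal proteins 8 rose (10.0%) and 35 fell (43.8%), a median log2 fold change of -0.18, and of the 77 nuclear oxidative phosphorylation subunits tested 5 rose (6.49%) and 35 fell (45.5%), a median of -0.17, where the median of all genes was -0.04. Mrps23 fell by 1.10 and Mrpl33 by 0.96 on the log2 scale, and Ndufb2, of complex I, fell by 0.84 and Uqcrb, of complex III, by 0.63. In the other direction Mrpl2 rose by 0.40, Mrpl14 by 0.34, Cox6a2 by 0.51 from a level near 1.04 TPM, and Ndufa6 by 0.47. The Cox6a2 call (adjusted p = 0.0477) was lost with each library left out (adjusted p from 0.0617 to 0.186), with a pseudocount of 5 (0.0528), with no filter (0.0923) and with the replicate block (0.0735). Mrpl14 was not called without the first or the second 3D library (adjusted p = 0.0558 and 0.0587), nor Mrpl2 without the second (0.0578). Of 17 mitochondrial aminoacyl-tRNA synthetase genes 4 fell (23.5%, against 27.1% of all genes tested), Nars2 at -0.51 among them, and none rose.

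Of the 8 tested regulators of mitochondrial biogenesis 3 rose (37.5%) and 2 fell (25%), against 23.4% and 27.1% of all genes tested. Ppargc1a, the coactivator PGC-1α, was at 2.89 and 3.35 TPM in 2D and at 9.96 and 9.37 TPM in 3D, a rise of 1.37 ± 0.10 on the log2 scale (adjusted p = 0.0010). Yy1 rose by 0.43, and Gabpa and Myc, transcription factors known to act on nuclear mitochondrial genes, fell by 0.29 and 0.32. Gabpa was not called without the first or the second 3D library (adjusted p = 0.0693 and 0.0595), nor Myc without the second 2D (0.0533) or the first 3D library (0.0659). Summed over the nuclear oxidative phosphorylation subunits the levels were 20353 and 19802 TPM in 2D and 17552 and 17613 TPM in 3D, while the mitochondrial mRNAs summed to 50498 and 50195 TPM and to 64682 and 61715 TPM. The nuclear sum was lower in both 3D libraries and the mitochondrial sum higher. The mitochondrial sum includes mt-Nd4, at 3905 TPM in the first 2D library and 16.8 TPM in the second. Over all members but mt-Nd4 the shares of all TPM were 5.05% and 5.37% in 2D and 6.27% and 6.01% in 3D.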

How the data were processed

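RNA-seq libraries of poly(A) RNA from AML12 cells, 2 from 2D and 2 from 3D cultures, were prepared with a stranded kit. Per the submitters' notes and methods, reads were trimmed with cutadapt 1.8.3 and Trimmomatic 0.36, aligned to GRCm38 with HISAT2 2.0.5 and quantified with StringTie 1.3.4, and the TPM of each library, not pooled, was deposited by the authors. The table also holds the authors' own log2 fold change and p-value between the cultures, from DESeq2 on read counts, which were not used. How reads that fit a mitochondrial gene and a nuclear copy equally were assigned is not given in the sources used here. TPM keeps no depth, so no counting interval was computed.

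For the 14116 genes whose TPM averaged 1 or more across libraries, log2(TPM + 1) was modelled by culture alone in limma 3.58.1 (R 4.3.3), with lmFit and a trended, robust eBayes. Tests were two-sided, with Benjamini-Hochberg adjustment. The fold changes are on the scale of log2(TPM + 1) and understate those of low genes. The test was checked on simulated data with known changes in 200 genes. That is far fewer than the 7122 genes called here, so the check does not cover data with so many changes. Nuclear copies were sought with blastn 2.17.0 among all other GENCODE M21 transcripts. All 37 members had a transcript there of the same length as in the table. Figures were drawn with matplotlib 3.10.9.

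All members were named, and up to 2 called genes at either extreme of log2 fold change in each nuclear list, besides Polrmt, Tfam, Tfb2m, Tefm, Lrpprc and Slirp, and nuclear genes matching a member over at least 200 bases at 95% identity. A gene that this rule names is not reported here. The members and lists were chosen with earlier results of these data known. Alternatives were pseudocounts of 0.1 and 5, no filter or a mean TPM of at least 5, centring, quantile normalization, 2 rescalings of the TPM total, a replicate block, a prior variance held constant, overlapping genes summed, nuclear copies added and each library left out. The Hi-C libraries of the study were not used here.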

Additional observations from a re-analysis of the deposited data

How the results depend on the processing

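With 2 libraries per culture and no counts, small differences rest on the spread of a few values. Of 456 values of the members under the alternatives, 397 kept their direction and side of the threshold, 17 reversed, 18 passed the threshold only under the alternative and 24 no longer passed it. For the other named genes these were 566, 5, 6 and 34 of 611.

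The number of rRNAs called, 2 as reported, was 0 with no filter on low values, 0 with a constant prior variance, 1 with centring on the median and 0 with the replicate block, and it ranged from 0 to 2 as single libraries were left out, 0 in each case but the second 3D library. The number of mRNAs called, 4 as reported, ranged from 2 without the second 3D library to 7 without the second 2D library; it was 3 with no filter on low values, which lost mt-Nd3, and 3 with a constant prior variance, which lost mt-Nd2. Their median log2 fold change ranged from 0.11 without the first to 0.28 without the second 2D library. It was 0.014 under quantile normalization. The result all genes called, 3D against 2D, ranged from 4720 to 5954 as libraries were left out, lowest without the first 3D library, and the nuclear list genes called, 121 as reported, from 63 without the second 3D library and 67 without the first to 105. Replicate disagreement in 2D, 3 members as reported, was 10 with a pseudocount of 0.1. The difference in the mitochondrial share was 1.41 points without the 20 other highest genes in the total. Chosen after the data were seen, it was 0.93 points without mt-Nd4 and 0.36 points without mRNAs matched by near-identical copies.

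Reversed values were those of mt-Cytb (-0.17) and mt-Nd1 (-0.26) under quantile normalization, both called. mt-Tq, at -0.01 as reported, turned to 0.0019 with centring, 0.022 with quantile normalization, 0.0038 with rescaling over non-mitochondrial genes and 0.013 with rescaling that also left out the 20 highest. With single libraries left out the log2 fold changes ranged from -0.60 to 0.15 for mt-Tv, -0.38 to 0.35 for mt-Tq, -0.22 to 1.07 for mt-Co2, -6.47 to 0.053 for mt-Atp6, -0.067 to 0.49 for mt-Nd4l, -0.22 to 0.56 for mt-Th, -0.41 to 0.0044 for mt-Tl2, -0.40 to 0.074 for mt-Nd6, -0.044 to 0.60 for mt-Tt, -0.85 to 0.47 for Gm10925, -0.99 to 0.64 for Gm28661 and -0.34 to 0.19 for Slirp. With a library left out, the lone library of its culture was assumed to vary like those of the other culture. The cause of these changes was not tested.

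The replicate numbers were shared only as numbers: deviations of same-numbered libraries correlated at -0.0549. With the replicate block 6248 of the genes tested were called, 6061 of them also called in the same direction without it, and 4 mRNAs and 4 tRNAs. Among the named genes the block ended the calls of mt-Rnr1, mt-Rnr2, Mterf1a and Cox6a2 and added that of mt-Tc, with the adjusted p given above, and changed no other.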
